A study of Rattus norvegicus with 15 samples.

Results

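The genes of megalin and cubilin endocytosis were examined in rat kidney. Probe sets were taken wherever the platform annotation gave the symbol of 1 of 9 genes, which were the receptors Lrp2 (megalin) and Cubn (cubilin), the chaperone Lrpap1, the adaptor Dab2, the endosomal chloride transporter Clcn5, the filtered ligand Rbp4, the recycling proteins Ehd3 and Ehd4, and the lysosomal protease Ctsb. This gave 19 probe sets of 26379 on the arrays, and 9 genes of 10969 with a single symbol. Array A carried 16 of these probe sets for 8 genes, array B carried 1 for Ehd3, and array C carried 2 for Ehd3 and Ehd4. The list was put together with earlier results of these data known, among them the strain difference of Ehd4 on array C, so values of the strain comparison are given here as a description and without a p-value for the members.

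Kidney RNA of 5-week-old rats was measured on 15 arrays of 3 designs, 5 arrays per design. On arrays B and C, kidneys 4 and 5 were from a strain congenic for chromosome 10 on the Dahl salt-sensitive background (n = 2), and kidneys 1 to 3 were from the Dahl salt-sensitive strain (Dahl S, n = 3), inbred rats that become hypertensive when fed salt. In congenic rats a stretch of 1 chromosome has been bred in from a donor line; neither the donor nor the ends of the stretch are given in the sources used here. Nothing says that each kidney was from its own animal, and the spread between samples may therefore be technical. On array A all kidneys are described as Dahl S, but numbers 4 and 5 are those of the congenic kidneys elsewhere. Their strain was therefore left unsettled, their values are given singly, and they entered no comparison between strains. None of the genes lies on chromosome 10 (0 of 9).

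Megalin is a giant receptor of the low density lipoprotein receptor family on the brush border of the proximal tubule, and cubilin is a peripheral membrane protein that depends on amnionless (Amn) and megalin to enter the cell. Together they recover albumin, vitamin carrier proteins and small hormones from the filtrate. Dab2 links the tail of megalin to clathrin, acidified endosomes release the ligands, receptors recycle to the surface, and the cargo is degraded in lysosomes.

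The upstream sequences of the 5 genes on which the values below turn are shown so that the receptor pair, the ligand that stood apart in 1 kidney and the pair of recycling genes can be compared. They are RefSeq sequences of the rat assembly GRCr8, from 250 bases before to 50 bases after the annotated start, 5′ to 3′ on the strand of the gene, which is the minus strand for each. Of the 9 genes, 8 had an entry. The intervals are chr3:74754486-74754785 for Lrp2, chr17:81501645-81501944 for Cubn, chr1:245313502-245313801 for Rbp4, chr6:27417396-27417695 for Ehd3 and chr3:127575714-127576013 for Ehd4. Capitals mark exact matches on either strand to the GC box GGGCGG, the CCAAT box CCAAT and the TATA box TATAAA.
Lrp2: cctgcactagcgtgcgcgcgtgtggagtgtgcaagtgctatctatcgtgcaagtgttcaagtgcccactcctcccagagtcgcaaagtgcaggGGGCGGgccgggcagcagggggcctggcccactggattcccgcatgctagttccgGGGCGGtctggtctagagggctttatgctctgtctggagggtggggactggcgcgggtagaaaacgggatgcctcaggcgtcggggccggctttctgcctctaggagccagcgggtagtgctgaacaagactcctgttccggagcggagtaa
Cubn: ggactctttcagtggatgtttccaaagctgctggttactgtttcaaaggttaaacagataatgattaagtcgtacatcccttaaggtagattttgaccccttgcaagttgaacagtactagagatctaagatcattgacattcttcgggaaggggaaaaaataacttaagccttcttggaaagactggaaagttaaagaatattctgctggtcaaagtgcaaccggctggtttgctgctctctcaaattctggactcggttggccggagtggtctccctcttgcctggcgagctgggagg
Rbp4: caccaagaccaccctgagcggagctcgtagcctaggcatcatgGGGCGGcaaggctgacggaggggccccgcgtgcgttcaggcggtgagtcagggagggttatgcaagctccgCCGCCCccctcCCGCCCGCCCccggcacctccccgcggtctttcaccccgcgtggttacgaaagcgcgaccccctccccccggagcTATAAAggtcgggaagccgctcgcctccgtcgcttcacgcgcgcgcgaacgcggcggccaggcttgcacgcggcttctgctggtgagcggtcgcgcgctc
Ehd3: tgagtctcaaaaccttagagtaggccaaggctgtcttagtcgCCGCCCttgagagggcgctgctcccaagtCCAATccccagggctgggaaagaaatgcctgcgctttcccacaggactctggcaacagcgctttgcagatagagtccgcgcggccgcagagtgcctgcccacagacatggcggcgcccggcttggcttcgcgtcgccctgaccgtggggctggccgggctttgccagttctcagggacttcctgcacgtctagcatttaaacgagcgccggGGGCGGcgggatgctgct
Ehd4: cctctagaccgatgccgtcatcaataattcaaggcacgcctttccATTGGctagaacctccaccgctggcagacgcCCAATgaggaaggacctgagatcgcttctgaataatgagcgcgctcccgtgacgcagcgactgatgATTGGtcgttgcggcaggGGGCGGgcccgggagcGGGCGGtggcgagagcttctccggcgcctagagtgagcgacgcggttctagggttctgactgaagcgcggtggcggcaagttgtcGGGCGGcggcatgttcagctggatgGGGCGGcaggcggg
The receptor pair differed in these letters. The Lrp2 sequence held 20 CG dinucleotides and 2 GC boxes, whereas the Cubn sequence held 6 CG dinucleotides and none of the 3 motifs. Rbp4 held 40 CG dinucleotides, 4 GC boxes, of which 2 overlap, and 1 TATA box. Ehd3 held 23 CG dinucleotides, 2 GC boxes and 1 CCAAT box, and Ehd4 held 31 CG dinucleotides, 4 GC boxes and 3 CCAAT boxes. Across all 33469 sequences of this kind the median was 7 CG dinucleotides, and a GC box occurred in 33.1%, a CCAAT box in 37.5% and a TATA box in 14.2%. A match is a description of the letters and not evidence of a bound factor.

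Signal intensities are given as deposited, on a linear scale on which the mean of each array without its extreme values was already close to equal. The floor, the 25th percentile of a design, was 85.1 for array A, 140.1 for array B and 153.6 for array C. A probe set was tested where it averaged at least the overall median of its design, which was 319.5, 485.8 and 510.3 in the same order. Of the 19 probe sets 16 did so, 13 of 16 on array A and all 3 on arrays B and C. The probe sets that did not were both of Clcn5 and 1 of Rbp4. Levels of different probe sets were not set against each other, since probes differ in brightness.

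The arrays of a design resembled each other, and Spearman's rho between pairs of arrays, taken across probe sets, was never under 0.961 for A and B or under 0.964 for C. The tissue was checked against proximal tubule markers, the segment in which megalin and cubilin act. On array A 13 of 16 markers were present and all 13 passed the filter on low values. Their summed signal was 191580.1 in kidney 4 and 151523 in kidney 5, against 176014 to 194653 in the Dahl S kidneys. Slc34a1, with the largest signal of the 13, measured 51193 and 33515, against 54434, 62655 and 48780. The median log2 deviation of the 13 markers from their median kidney was 0 in kidney 4 and −0.01 in kidney 5. In the Dahl S kidneys it was 0, 0.03 and 0. On array C 4 of 16 were present, with sums of 137256 and 101935 in the congenic kidneys against 114819 to 130480.2 in the Dahl S kidneys, and array B carried none. The 4 markers of array C did not share 1 order. Pck1 measured 41284 and 18562 in the congenic kidneys, against 23615, 22091 and 23170 in the Dahl S kidneys. Ggt1 was lower in both congenic kidneys, at 11134 and 10663.5 against 11684, 12297.5 and 13191. The groups overlapped for Miox and Slc22a8. In each bulk sample a lower signal can come from fewer cells of a type or from less RNA per cell, and these cannot be told apart.

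The megalin transcript (Lrp2) varied less over the kidneys of array A than the median probe set of that design. Probe set L34049_at of Lrp2 measured 8625 in kidney 4 and 7113 in kidney 5, against 7787, 7648 and 7281 in Dahl S kidneys 1 to 3 (7572 ± 262, SD, n = 3). Its companion L34049_g_at measured 16425.5 and 12132, against 14114, 16708 and 13948 in the Dahl S kidneys (14923 ± 1548, SD, n = 3). The third, rc_AA891764_s_at, measured 5135 and 4637, against 3668, 4729 and 4424 in the Dahl S kidneys (4274 ± 546, SD, n = 3). Kidney 4 was the highest on 2 of these 3 probe sets and kidney 5 the lowest on 2, while the lowest on the third was Dahl S kidney 1. The ratio of the highest to the lowest kidney was 1.21, 1.38 and 1.40, where the median over all 4411 tested probe sets of array A was 1.45.

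Cubn varied more than Lrp2 and in another kidney. Its probe set AF022247_at measured 3813 in kidney 4 and 5512 in kidney 5, against 3467, 3170.1 and 3969.7 in the Dahl S kidneys (3536 ± 404, SD, n = 3). Kidney 5 lay above the other 4, at 1.39 times the next kidney, and kidney 4 lay within the Dahl S range. Amn, the partner of cubilin, did not have that order: it measured 2738 in kidney 4 and 2051 in kidney 5, against 1957, 1833 and 2504 in the Dahl S kidneys. With a single probe set for Cubn, no second measurement of the value in kidney 5 was at hand.

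Lrpap1 encodes the receptor-associated protein, a chaperone of the endoplasmic reticulum that keeps ligands off megalin until it leaves. Its 4 probe sets did not give the same order of kidneys. The pair from 1 coding sequence, Z11995cds_at and Z11995cds_g_at, was highest in kidney 4. Z11995cds_g_at measured 3620.5 in kidney 4 and 2658 in kidney 5, against 2666, 2891 and 2954 in the Dahl S kidneys (2837 ± 152, SD, n = 3). Z11995cds_at measured 2807 and 2351, against 2352, 2083 and 2639 (2358 ± 278, SD, n = 3). The brighter expressed sequence tag rc_AI232268_at was highest in kidney 5 instead, with 5381 in kidney 4 and 6959 in kidney 5 against 5839, 6757 and 4548 in the Dahl S kidneys (5715 ± 1110, SD, n = 3). The last, rc_AA892810_at, ran from 1591 to 1786 over the 5 kidneys.

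Dab2, the clathrin adaptor of megalin, and Ctsb, the lysosomal protease cathepsin B, were among the steadiest members. Dab2 measured 6413 in kidney 4 and 6394 in kidney 5, against 6581, 6501 and 5870.3 in the Dahl S kidneys (6317 ± 389, SD, n = 3), a ratio of highest to lowest of 1.12. Ctsb measured 7604 and 7736, against 8019, 8102 and 8685 (8269 ± 363, SD, n = 3), with kidneys 4 and 5 both below the 3 Dahl S kidneys but a ratio of only 1.14. The other cathepsins of array A, lysosomal proteases like Ctsb, had varied orders. Ctsl measured 12984 in kidney 4 and 16841 in kidney 5, against 21609.9, 19135 and 19047 in the Dahl S kidneys, both below the Dahl S range. Ctsh measured 7037 and 5154, against 5847, 6061 and 5522, with kidney 4 above that range and kidney 5 below it. For Ctsd, Ctsc, Ctss and Ctsk at least 1 of kidneys 4 and 5 lay within the Dahl S range.

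Clcn5 encodes the chloride-proton exchanger of early endosomes whose loss in humans causes Dent disease. Its signal was too low to describe: D50497_s_at measured 93.5 in kidney 4 and 50 in kidney 5, against 36.9, 229 and 22.1 in the Dahl S kidneys, with 3 of the 5 values under the floor, and Z56277_i_at was under the floor in all 5 kidneys. Of its relatives on array A, Clcn3 and Clcn4 passed the filter on low values and Clcn7 did not. Clcn3 measured 1154 and 1199.8, against 1051, 1265 and 1092 in the Dahl S kidneys, and Clcn4 measured 331 and 386, against 372, 522 and 491. Clcn7 measured 121 and 93.8, against 112, 207 and 38.6, with 1 value under the floor.

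**Figure D1:**
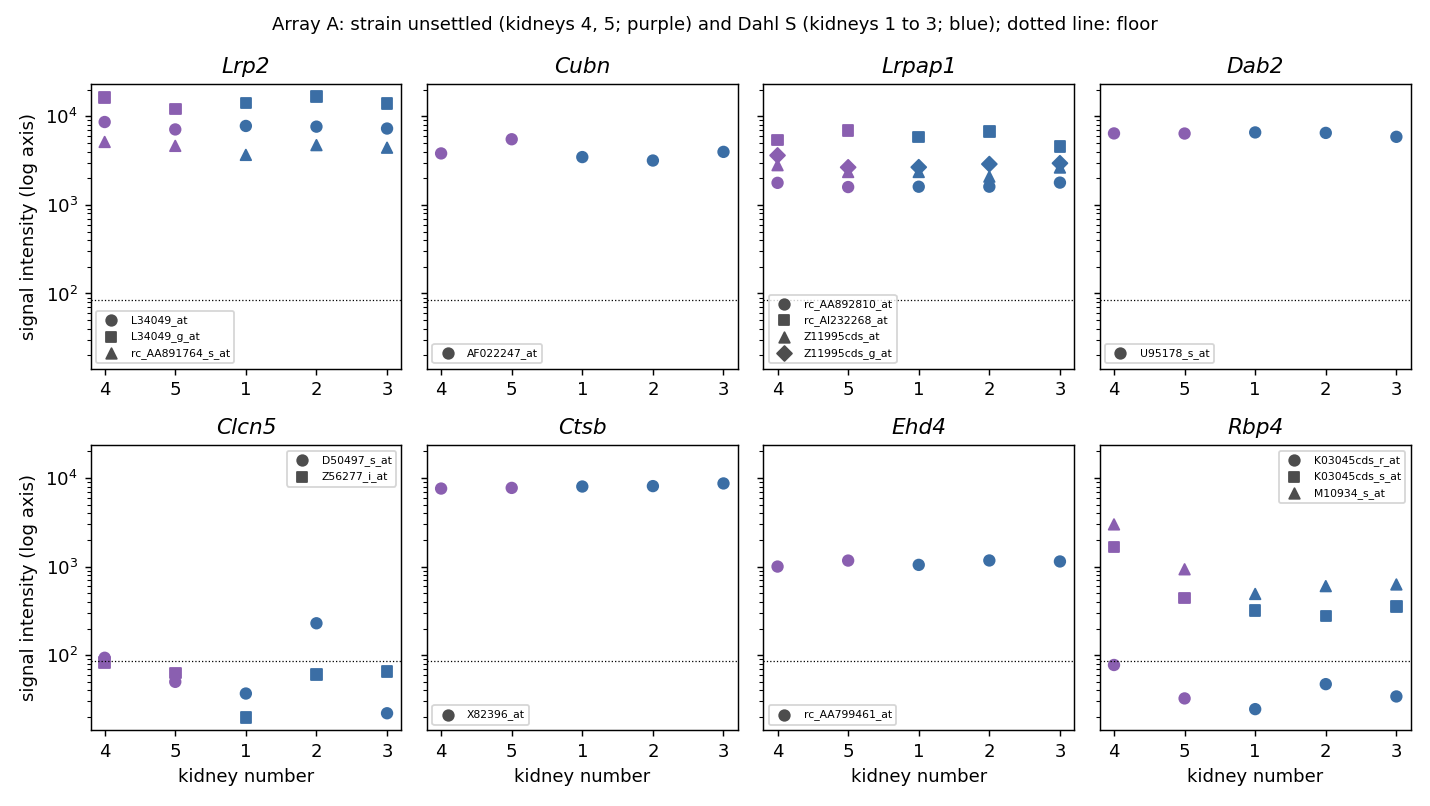
Signal intensity of the 16 probe sets on array A by kidney, on a log axis, with a panel per gene and a marker per probe set. Kidneys 4 and 5 (strain unsettled) stand left of Dahl S kidneys 1 to 3, and the dotted line is the floor of 85.1. Among probe sets that passed the filter on low values, Rbp4 in kidney 4 leaves its row, at 2995 and 1669 on its brighter probe sets. Clcn5 in kidney 2, at 229 on D50497_s_at, also stands apart, with 3 of the 5 values of that probe set under the floor.

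Rbp4, the plasma carrier of retinol and a ligand that megalin recovers from the filtrate, had the widest spread among the member probe sets that passed the filter on low values. M10934_s_at measured 2995 in kidney 4 and 932 in kidney 5, against 491, 602 and 628 in the Dahl S kidneys (574 ± 72.9, SD, n = 3). K03045cds_s_at measured 1669 and 444, against 321, 276 and 354.5 in the Dahl S kidneys (317 ± 39.5, SD, n = 3). On both, kidney 4 was the highest, kidney 5 came next, and no Dahl S kidney reached either. Kidney 4 was 3.21 and 3.76 times the next highest kidney on these probe sets. The remaining probe set, K03045cds_r_at, was under the floor in all 5 kidneys, with its highest value, 77.5, again in kidney 4. The probe sets of Rbp4 read the same transcript and are not independent samples.

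Values this far above the other kidneys were rare on array A and were mostly in kidney 4. At least 2 times the highest of the other 4 kidneys was reached by 26 of 4411 tested probe sets in kidney 4 (0.589%), against 2 in kidney 1 (0.0453%), 1 in kidney 2 (0.0227%), 1 in kidney 5 (0.0227%) and 0 in kidney 3 (0%). The 2 Rbp4 probe sets were the only members among them. Low values were spread over more kidneys. At least 2 times under the lowest of the others were 24 probe sets in kidney 4 (0.544%) and 19 in kidney 3 (0.431%). Kidneys 2 and 5 had 8 each (0.181%) and kidney 1 had 5 (0.113%), with no member among these low values. The filter on low values took the mean of all 5 kidneys. A probe set low in the other 4 could thus pass it through kidney 4 alone. Other plasma proteins of the list had varied orders. Gc, the vitamin D carrier, measured 2068 in kidney 4 and 1412 in kidney 5, against 558, 697 and 1017 in the Dahl S kidneys. Ttr, the transthyretin that binds Rbp4 in plasma, measured 313 and 270.2, against 346, 403 and 707, and Tcn2, the vitamin B12 carrier, measured 5143 and 4687, against 5191, 5119 and 4952. Apoh, a plasma glycoprotein made by liver, measured 195 and 75.3, against 14.8, 14.9 and 16.2, with 4 of the 5 values under the floor. Gc thus shared with Rbp4 the order of kidney 4, then kidney 5, then the Dahl S kidneys, Apoh was above the floor in kidney 4 alone, and Ttr and Tcn2 had other orders.

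Rbp4 is also known from liver and fat, so genes of those tissues are given beside it. Albumin (Alb), the chief product of liver, measured 111 in kidney 4 and 139 in kidney 5, against 162, 181 and 146 in the Dahl S kidneys, and Apoa1 measured 189 and 190.1, against 142, 188 and 124; neither passed the filter on low values. Other genes well known from liver were among the 26 probe sets high in kidney 4, named here after their values were seen. Cyp2c11, a cytochrome P450 of male rat liver, measured 2900.4 in kidney 4 and 381 in kidney 5, against 62.3, 83.2 and 78.4 in the Dahl S kidneys. Its Dahl S values were all under the floor, and it passed the filter through its value in kidney 4. Bhmt, a methyltransferase of liver and kidney, measured 1508 and 344, against 342, 248 and 407, and F2, prothrombin, 1044 and 474, against 341, 465 and 437. Spp2, a secreted protein of liver, measured 3982.5 and 1902, against 1989, 1407 and 1484. The 26 also held genes of renal tubules, such as Slc12a3, the thiazide-sensitive cotransporter, at 2241 and 553 against 733, 788 and 748 (rc_AA965132_s_at), and Pck1, of gluconeogenesis in both organs, at 14299 and 5010.2 against 5048, 5358 and 4802. Another Slc12a3 probe set, U10097_at, did not share this, with 4181 and 3373 against 3228, 5037.5 and 4939. Of 7 fat markers 6 were on array A, and their summed signal was 7138 in kidney 4 and 5906 in kidney 5, against 5464 to 8008 in the Dahl S kidneys. Lpl, the lipoprotein lipase that fat and kidney both express, was highest in kidney 4 on each of 3 probe sets. L03294_at of Lpl measured 1872 and 1357, against 1055, 1190.4 and 783, L03294_g_at 2524 and 915, against 873, 651 and 776, and rc_AI237731_s_at 2397 and 791, against 781, 805 and 866. Kidney 4 was 2.76 and 2.77 times the next kidney on the last pair, which were among the 26. Ucp1, the uncoupling protein of brown fat, measured 397 and 104, against 271, 311 and 303. It was also highest in kidney 4 but did not pass the filter on low values. The other fat markers were not: Lep measured 4520.4 and 4251 against 6334, 5679 and 4088, Fabp4 193 and 114 against 201, 271 and 199, and Cfd 145 and 51.6 against 129, 167 and 58.3. Plin1 was under the floor in all 5 kidneys. Fabp4 and Cfd did not pass the filter on low values either, so of the 6 fat markers only Lpl and Lep did. The part of liver or fat RNA in the Rbp4 values was not tested. Arrays B and C carried no Rbp4 probe set with a single symbol, so whether congenic kidney 4 of those designs had the same level was not measured.

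**Figure D2:**
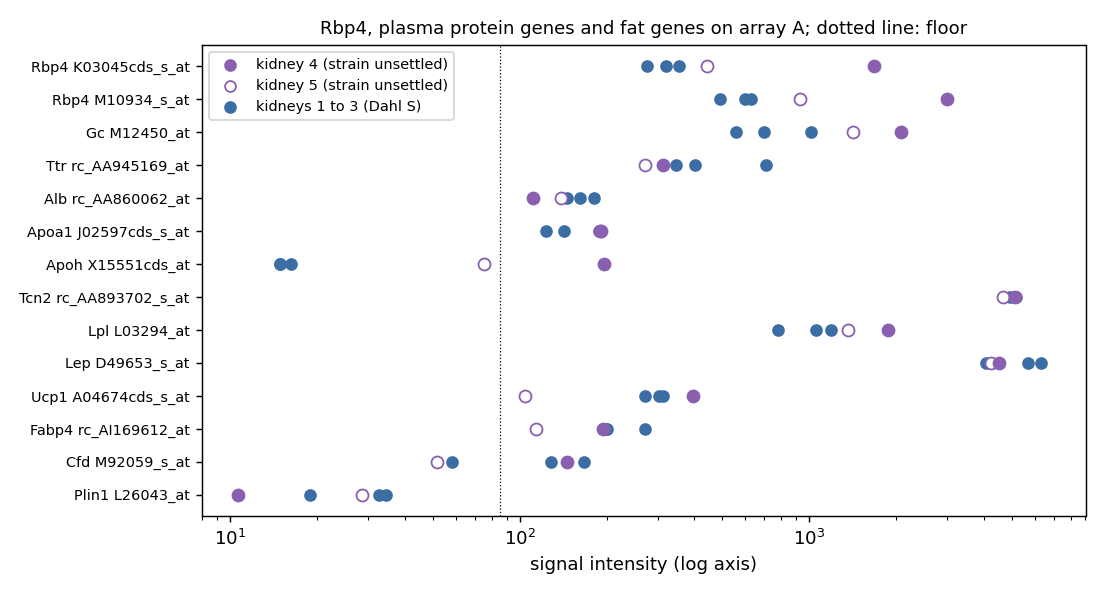
Signal intensity on array A, on a log axis, of the 2 measurable Rbp4 probe sets and of genes of plasma proteins and fat, 1 row per probe set. Points are kidney 4 (filled purple), kidney 5 (open purple) and Dahl S kidneys 1 to 3 (blue), and the dotted line is the floor. Kidney 4 is the highest in both Rbp4 rows and in Gc, Apoh, Lpl and Ucp1. It is the lowest in Alb and in Plin1, where all values are under the floor for Plin1.

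The proteins Ehd3 and Ehd4 belong to a family of membrane-bending ATPases that help return receptors from endosomes to the cell surface. They were the members with values in both strains. Ehd4 on array C (rc_AI233822_at) measured 869 and 976 in the congenic kidneys, against 1389, 1437 and 1435 in the Dahl S kidneys. The groups averaged 923 ± 75.6 in congenic (SD, n = 2) and 1420.2 ± 27.4 in Dahl S kidneys (SD, n = 3), and they did not overlap. The log2 difference, congenic minus Dahl S, was −0.62 (SE 0.13, 95% interval −0.94 to −0.31), which is 1.54-fold lower in the congenic kidneys. This is the difference by which Ehd4 was known when the list was made.

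Ehd3 was read by a probe set on each of arrays B and C. On array B, rc_AA957585_at measured 2036 and 2083.5 in the congenic kidneys, against 2418, 2323.5 and 2985 in the Dahl S kidneys, averaging 2059.6 ± 33.9 (SD, n = 2) and 2576 ± 358 (SD, n = 3). The log2 difference was −0.31 (SE 0.16, 95% interval −0.69 to 0.06). On array C, rc_AI071456_at measured 1146 and 1053 in the congenic kidneys, against 1151, 1536 and 1319 in the Dahl S kidneys, averaging 1099 ± 65.5 (SD, n = 2) and 1335 ± 193 (SD, n = 3). The log2 difference there was −0.27 (SE 0.16, 95% interval −0.66 to 0.11). Values of the strains did not overlap on either design, but on array C the highest congenic value, 1146, lay just under the lowest Dahl S value, 1151. Arrays B and C bear the same kidney numbers, so these are not separate samples of the strains.

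No Ehd probe set was called between strains. In the limma fit with an adjusted p threshold of 0.05, 4 of 4385 probe sets were called on array B (0.0912%) and 0 of 4420 on array C (0%), and of the members 0 of 1 and 0 of 2. At an unadjusted p under 0.05 there were 153 and 274 probe sets on these arrays. Groups that do not overlap with the congenic kidneys lower were common over the whole designs, 414 of 4385 on B (9.44%) and 540 of 4420 on C (12.2%), and the 3 Ehd probe sets were all of that kind; since Ehd4 was chosen on this contrast, the count is a description. A difference as low as that of Ehd4 on array C was found in 1.31% of the tested probe sets there, and as low as that of Ehd3 in 7.21% on B and 9.68% on C. The median difference over all tested probe sets was −0.01 on each design. The 95% intervals are per probe set and are not adjusted for the number tested.

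**Figure D3:**
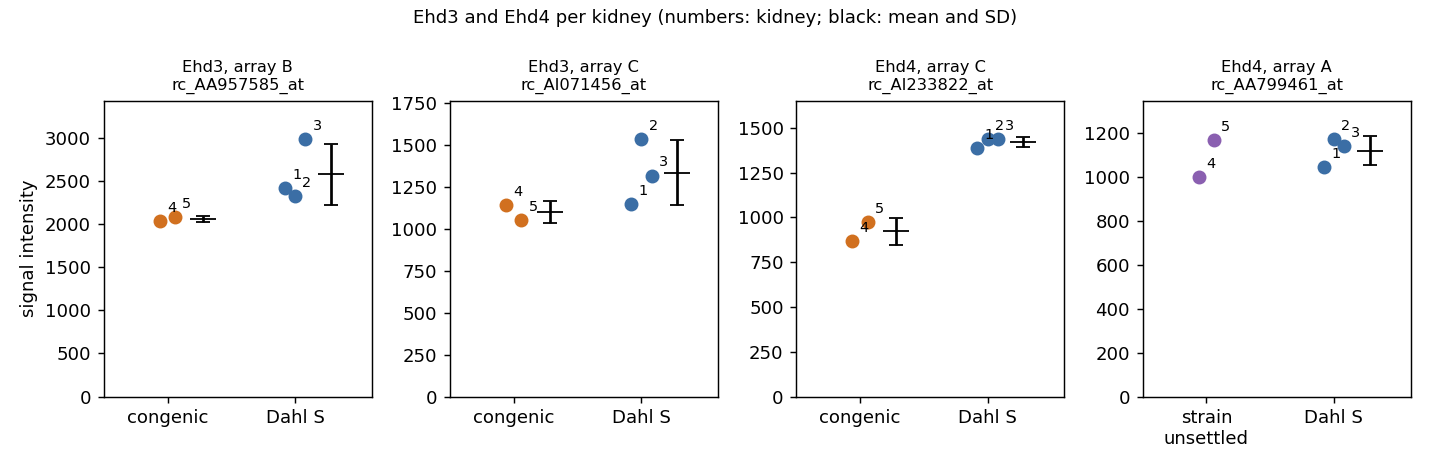
Signal intensity per kidney for Ehd3 on arrays B and C and Ehd4 on arrays C and A, with axes from 0 and the kidney number beside each point. Congenic kidneys (orange) or kidneys of unsettled strain (purple) stand left of Dahl S kidneys (blue), black marks give mean and SD, and the gap between groups is widest for Ehd4 on array C, at 869 and 976 against 1389 to 1437.

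**Figure D4:**
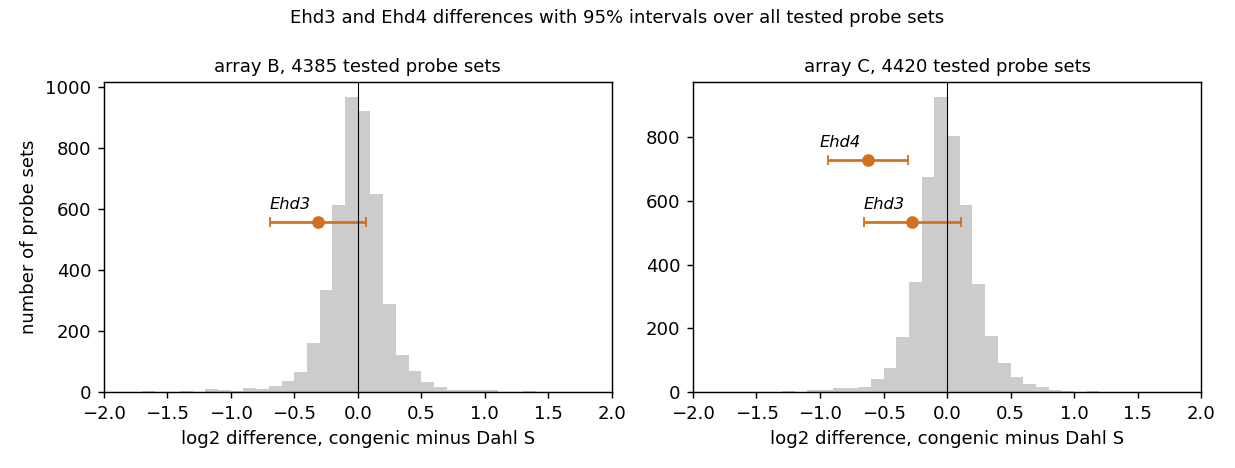
Log2 difference, congenic minus Dahl S, of all tested probe sets on arrays B and C as grey histograms, with Ehd3 and Ehd4 as orange points with 95% intervals at arbitrary heights. The 3 points lie left of 0, at −0.31, −0.27 and −0.62, within the spread of the other probe sets, of which 3 on each array lie beyond the axis.

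A second Ehd4 probe set, rc_AA799461_at on array A, measured 1001 in kidney 4 and 1169.6 in kidney 5, against 1046, 1173 and 1143 in the Dahl S kidneys (1120.5 ± 66.4, SD, n = 3). Kidney 5 fell within the Dahl S range there and kidney 4 just under it, and the ratio of the highest to the lowest kidney was 1.17, compared with 1.65 for the probe set of array C. Strain is unsettled for these arrays, so the values stand beside those of array C without a comparison.

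Other measurements ran alongside the Ehd values. The 3′ over 5′ signal ratio of the GAPDH control, a measure of RNA integrity, was 1.05 in both congenic kidneys of array C against 1.09 to 1.11 in the Dahl S kidneys, and 1.07 and 1.17 in the congenic kidneys of array B against 1.11 to 1.18 in the Dahl S kidneys. On array A the ratio was 1.04 in both kidneys 4 and 5, against 1.06 to 1.07 in the Dahl S kidneys. In mouse kidney Ehd3 is known from the glomerular endothelium. Of 7 endothelial markers 3 were on array B, 3 on array C and 4 on array A. On array B they summed to 4166 and 3903 in the congenic kidneys, against 3448 to 3754.5 in the Dahl S kidneys. The sums on array C were 4804 and 4484 against 4081 to 4299. Those of array A were 1980 in kidney 4 and 2472 in kidney 5, against 2013 to 2396 in the Dahl S kidneys. Glomerular markers summed to 8266 and 6637 in the congenic kidneys against 6082 to 6784 in the Dahl S kidneys on array B (3 of 7 present). These markers differed in direction. Podxl was higher in both congenic kidneys, at 5106 and 3188 against 2469, 2551 and 3010. Cd2ap was lower in both, at 2796 and 3263 against 3467, 3294 and 3545, and Wt1 did not pass the filter on low values. The marker on array C (1 of 7), again Podxl, measured 1887 and 1246 against 777 to 1327. Leukocyte markers summed to 8446 and 10443 against 7936 to 12422 on array B (3 of 10) and to 7343 and 5272.5 against 6014.5 to 8607 on array C (4 of 10). The leukocyte markers of array C did not share 1 order. Cd74 measured 5045 and 2200 against 3876, 3796 and 5703, and Cd68 1743 and 2394 against 2299, 1628 and 2023. Laptm5 measured 394 and 555 against 902, 451 and 803, and Ptprc did not pass the filter on low values. Collecting duct markers summed to 7615 and 9751 against 9495 to 9823.5 on array B (2 of 10) and to 2588 and 1366 against 2435 to 2795 on array C (2 of 10), and 1 of them, Krt19, a keratin of collecting duct cells, was apart between strains on both designs. On array B Krt19 measured 613 and 1039 in the congenic kidneys, against 1739, 1458 and 1727 in the Dahl S kidneys (log2 difference −1.03, SE 0.24, limma adjusted p = 0.934). On array C it measured 537 and 476, against 1625, 1290.3 and 1567 (log2 difference −1.56, SE 0.16, limma adjusted p = 0.0754). On array A Krt19 measured 459 in kidney 4 and 468 in kidney 5, against 927.5, 787 and 968 in the Dahl S kidneys. The chromosome of Krt19 is not given here, and whether the gene lies in the stretch bred in from the donor was not tested. The other collecting duct marker of each design did not follow Krt19, and its groups overlapped. Slc4a1 measured 7001 and 8711 against 7806.5, 8366 and 7768 on array B, and Aqp4 2051 and 890 against 810, 1165 and 1228 on array C. On array A the collecting duct markers (9 of 10) summed to 20096 in kidney 4 and 17028 in kidney 5, against 15206 to 16584 in the Dahl S kidneys. The higher endothelial sums of the congenic kidneys did not hold for each marker. On array B Tek and Cdh5 were higher in both congenic kidneys without overlap, and the groups overlapped for Pecam1. On array C the groups overlapped for Emcn, Cdh5 and Flt1, and Flt1 did not pass the filter on low values. The part of the RNA ratio or of cell content in the Ehd values was not tested.

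One of the congenic kidneys behind these differences stood apart from the rest. Kidney 4 was at least 2 times the highest of the other 4 kidneys in 12 of 4385 tested probe sets on array B (0.274%) and in 19 of 4420 on array C (0.43%), where no other kidney was so in more than 1. It was at least 2 times under the lowest of the others in 36 on B (0.821%) and 23 on C (0.52%), and the other kidneys were so in 12 to 20 on B and 2 to 23 on C. No Ehd probe set was among these. The filter on low values again took the mean of all 5 kidneys, so a probe set could pass it through 1 kidney alone. Without kidney 4 the log2 difference was −0.30 for Ehd3 on B, −0.33 for Ehd3 on C and −0.54 for Ehd4 on C, each resting on congenic kidney 5 alone.

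Genes whose values ran most like a member over the 5 arrays of a design were found by the root mean square distance between log2 values centred on their mean. For Ehd4 on array C the nearest were Klf3 (0.04), Hnrnpa3 (0.05) and Cyyr1 (0.10), where the median distance to all named probe sets was 0.34. Klf3 measured 459 and 481 in the congenic kidneys, against 705, 721 and 702 in the Dahl S kidneys. For Ehd3 they were Iars1 (0.06), Ergic2 (0.06) and Tuba1a (0.07) on array B and Arhgef16 (0.03), Rb1cc1 (0.05) and Slc11a2 (0.05) on array C. For the brightest Lrp2 probe set on array A they were Arl1 (0.04), Ubqln1 (0.04) and Strn4 (0.04), and for Ehd4 there Samd1 (0.02), Hspe1 (0.02) and Plau (0.03). With 5 arrays and 3330 to 3683 candidates such closeness is a description only.

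The other genes of the pathway were taken from 7 lists, on adaptors and partners, the clathrin coat, endosomal sorting and recycling, endosomal acidification, lysosomal proteins, filtered ligands and the low density lipoprotein receptor family. They held 117 genes beside the members, of which 28 were tested on array B and 34 on array C. None was called in either direction (limma, adjusted p 0.998 to 0.999 on B and 0.775 to 0.994 on C), and at an unadjusted p under 0.05 there were 0 of 28 on B and 4 of 34 on C, where the whole designs had 3.49% and 6.2%. On array B 13 had a negative and 15 a positive difference (median 0.01), and on C 16 and 18 (median 0.03). Groups did not overlap for 1 lower and 3 higher genes on B and for 3 lower and 3 higher on C, beside 7.73% higher on B and 10.2% higher on C over all tested probe sets.

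The 4 genes of array C were Nsf, Nherf1 and Apoh, which GRCr8 places on chromosome 10, and Hexa on chromosome 8; of the tested pathway genes, 5 of 34 on array C lie on chromosome 10, the others being Atp6v0c and Rab5c, and 2 of 28 on array B, Nherf1 and Atp6v0e1. That Nsf, Nherf1 and Apoh share a chromosome was seen after their values. None of the 4 genes was called, and the share of chromosome 10 over all tested probe sets is not given here.

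Among the genes of recycling and sorting, Ehd1, of the same family as Ehd3 and Ehd4, measured 1842 and 1513 in the congenic kidneys, against 1700.5, 1981 and 2191 in the Dahl S kidneys on array C, with overlapping groups. Nsf, the ATPase that takes apart complexes of vesicle fusion, measured 1116 and 1117, against 1609.5, 1502 and 1548.5. Eea1, the tether of early endosomes, measured 494 and 644, against 644, 985.5 and 645 on array B, and Rab7a, the late endosome GTPase, 15900.3 and 11813, against 12358, 10391 and 11106. Rab7a on array C measured 2792 and 3321, against 2415, 3034 and 2622, and Rab5b, of early endosomes, on array B 6662 and 6057, against 6106, 7368 and 3126. Of these, the groups were apart for Nsf, and for Eea1 by a margin of less than 1 unit of signal.

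Of the partners of the receptors, Nherf1, a scaffold of the brush border, measured 809 and 901 in the congenic kidneys, against 616, 520.2 and 762 in the Dahl S kidneys on array C, and 23395 and 27623, against 22509, 23009 and 22947 on array B. Cd320, the receptor for the transcobalamin and vitamin B12 complex, measured 3319.5 and 3348, against 3663, 3517 and 3849 on array C. Groups were apart for these genes on the designs named. Groups overlapped for Numb, an endocytic adaptor, with 905 and 728, against 636, 786 and 579 on array C and 870.0 and 899, against 831, 1275.5 and 945 on array B. They overlapped too for Fcgrt, the neonatal Fc receptor, with 866 and 972, against 1038, 559 and 131 on array B, where the last value is under the floor. The clathrin light chain Cltb measured 1008 and 1037, against 941, 807 and 871 on array C, and the endocytic scaffold Eps15 951.5 and 1023, against 1012, 1223.5 and 886 on array B. On array C Eps15 measured 1257 and 1269.5, against 1386, 1325 and 1253.5, and Ap2a2, of the clathrin adaptor complex, 7556 and 7135, against 7049, 7380.0 and 7736. Of the coat genes named, the groups were apart for Cltb.

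In the lysosome, Hexa, a subunit of beta-hexosaminidase, measured 5103 and 4967 in the congenic kidneys, against 6547, 5841 and 7505 in the Dahl S kidneys on array C (log2 difference −0.39, SE 0.15, limma adjusted p = 0.775). The next on array C, with overlapping groups, were Lamp1, with 798 and 606 against 520.3, 619 and 838, and Ctsa, with 10253.6 and 7773 against 10656, 8793 and 8849. Ctsz, a cysteine cathepsin, measured 1150.5 and 1617, against 2214, 1426.5 and 1821 on array B, Cd63 3655 and 3213, against 3901, 3504 and 3654, and Psap, the precursor of saposins, 34576 and 45020.5, against 37665, 34499 and 37269. Of the filtered ligands, Apoh measured 829 and 670.5, against 518, 503 and 601 on array C (log2 difference 0.47, SE 0.16, limma adjusted p = 0.775), and B2m, the light chain of class I molecules, 14472 and 16315, against 16366.5, 14079 and 15304 on array B and 606 and 1029.9, against 1022, 1039 and 556 on array C. Tcn2 measured 3962.5 and 2473, against 2916.5, 2557 and 3006 on array C. In the receptor family, Lrp6 measured 909 and 811, against 841, 984 and 1237 on array C, and Lrp12 588 and 271, against 701, 575 and 813 on array B. Lrp1 measured 1009 and 1088, against 1259, 811 and 905, and Lrp10 6582 and 5609, against 5514, 6293.5 and 5706 on array C. Sort1, or sortilin, measured 10009.6 and 9797, against 9288, 9518.5 and 9041 on array B, with groups apart, and Lrp5 855 and 1059, against 1103, 1100.5 and 912.

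Acidification rests on the vacuolar ATPase, a proton pump of many subunits. Of its genes, the groups were apart for Atp6v0e1 on array B, with 8187 and 7728 against 7205, 7688.5 and 7150.4. They overlapped for Atp6v1a, with 2503 and 2445.5 against 1973, 2391 and 2718 on array B and 587 and 538 against 442, 735 and 271 on array C. They overlapped for Atp6ap2, with 5843 and 7312.5 against 7091, 6738 and 7406 on array B, and for Atp6v1c1, with 876 and 865 against 739.5, 888 and 739.7 on array C. Clcn6, a relative of Clcn5, measured 1099.6 and 1357, against 1206, 1001 and 1094 on array C.

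On array A the spread of the same lists over the 5 kidneys was widest for the filtered ligands. The median ratio of the highest to the lowest kidney was 1.24 for the 10 tested genes of acidification, 1.41 for 11 of the clathrin coat, 1.42 for 6 adaptors and partners, 1.43 for 13 lysosomal genes and 1.46 for 10 of sorting and recycling, and 1.67 for the 9 filtered ligands. The receptor family had 1 tested gene, Lrp3, with a ratio of 1.35. The ratio reached 2 for 4 of the 9 ligands, at 4.43 for A2m, 4.17 for Clu, 3.71 for Gc and 2.62 for Ttr, and for 1 gene each of the adaptors (Slc9a3) and of the clathrin coat (Dnm2). Of the 13 tested member probe sets, 9 had a ratio under 1.5 and 2, those of Rbp4, reached 2, and over all tested probe sets 498 of 4411 reached 2 (11.3%). Slc9a3, the sodium-hydrogen exchanger that sits with megalin in the brush border, measured 1249.6 in kidney 4 and 699 in kidney 5, against 578, 651 and 742 in the Dahl S kidneys. Among the ligands, Clu (clusterin) and A2m (alpha-2-macroglobulin) were instead highest in Dahl S kidney 1, Clu at 2409 and 4555 in kidneys 4 and 5 against 10040.4, 2976.5 and 4605, and A2m at 752 and 529.7 against 2083, 1017 and 471.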

How the data were processed

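Signal intensity per probe set was deposited by the authors for 5 arrays of each of 3 designs; the values are linear and not negative, from 0 to 92415, and the software that made them is not named in the labels. The mean of each array without the top and bottom 2% lay between 999.47 and 999.97, so each array had been scaled before deposit, and that scale was kept. Whether background was subtracted is unknown. Each design was processed alone. Lower values were set to the 25th percentile of the design, then all were taken to log2, and tested where the mean reached the median of all values. The 59 control probe sets of a design were left out. Symbols came from the platform annotation and were updated by gene identifier to GRCr8 (6985 of 7006 single symbols on A, 5333 of 5351 on B, 5804 of 5821 on C); 308, 38 and 45 probe sets with several symbols and 1426, 3343 and 2864 with none were not named. The assembly was used for names, chromosomes and the upstream sequences.

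On B and C, 2 congenic and 3 Dahl S kidneys were compared by limma 3.58.1 (lmFit, eBayes; R 4.3.3), with Benjamini-Hochberg adjustment over all tested probe sets of the design; the procedure was tested on simulated data. Lists were represented by the brightest tested probe set of a gene. From each pathway list, the rule was to name members past the threshold, otherwise the 3 with the smallest p on a design; the genes of array A outside the members were chosen after their values were seen. The members and lists were chosen with earlier results of these data known. Precision is limited by how many arrays there are. Alternatives tried were other scalings, floors and filters, an intensity trend and leaving out each array.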

Additional observations from a re-analysis of the deposited data

Results flagged for a closer look

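Rbp4 was set aside because it had a high signal in an array that entered no comparison. In kidney 4 of array A, whose strain is unsettled, Rbp4 measured 2994.6 (M10934_s_at) and 1669.4 (K03045cds_s_at), each at least 2 times the highest Dahl S kidney of that array. The ratio to the next highest kidney was 3.20 and 3.90 with quantile normalisation and 3.58 and 4.18 with median scaling, settings chosen after seeing the data. The part of strain, of the array and of other tissue in this value was not tested.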

How the results depend on the processing

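The Ehd differences kept their sign in every alternative run. The log2 difference of Ehd4 on array C lay between −0.71 and −0.54 over 11 settings, that of Ehd3 on array C between −0.37 and −0.17 over 11, and that of Ehd3 on array B between −0.38 and −0.20 over 12; with the filter at the 75th percentile the Ehd probe sets of array C were not tested. No member and no gene of the pathway lists was called in any setting, including those that left out an array (0 to 0). The count over the whole design did move. On array B the 4 calls became 1 with quantile normalisation, with median scaling, with a floor at the 10th or at the 40th percentile and with a stricter filter, at the 75th percentile, and 0 to 31 when an array was left out, the 31 without congenic kidney 5. On array C the 0 calls became 2 without a filter on low values, 1 with an intensity trend and robust variance, and 0 to 35 when an array was left out, the 35 without congenic kidney 5; the cause was not tested. Where a congenic array was left out, the remaining one was assumed to vary like the other group. No paired analysis was possible because the strains share no kidney number. With 2 and 3 arrays, the typical 95% interval of a probe set reached 0.39 on array B and 0.38 on array C to either side of its log2 difference.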
